A study of Mus musculus with 9 samples.

Results

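Laser-cut motor neurons of transplanted SMA mice were set against those of wild-type mice, to ask what still differed from wild type after the transplant. The comparison used the 3 arrays titled transplanted SMA and the 3 titled wild type, 6 of the 9 arrays of the study, chosen by title alone. The remaining 3 arrays came from SMA mice given vehicle and serve here as the untransplanted reference. Each array held a capture of motor neurons of 1 animal from the lumbar cord, in which transcripts of other cells were also read.

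The wild-type mice were given vehicle by the same surgery. The SMA mice are called transgenic in the series text, and the labels do not name their alleles. The transplanted mice received cells labelled NSC, known from the study to be neural stem cells. Their donor, number and route are not given here. Surgery in all 3 groups was at postnatal day 1, the mice were killed at day 13, and the cords were perfused with paraformaldehyde, cut at 16 µm and microdissected at about 100 cells per cap.

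Spinal muscular atrophy (SMA) results from low levels of SMN, a protein that builds the small nuclear ribonucleoproteins of the spliceosome, and spinal motor neurons are the cells most affected. Injured neurons are known to raise small heat shock proteins, the cell cycle inhibitor p21 and early transcription factors of the Fos, Jun and Egr families. Metallothioneins and several glucocorticoid targets are induced by metals and by stress hormones.

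The values are MAS5 signals, the brightness of a probe set (a group of probes for 1 transcript) in arbitrary units. Median signals were 31.4 to 35.8 over the 9 arrays. Smn1 was too dim to test, at 5.1, 3.7 and 1.8 in wild type and 2, 1.8 and 4.2 in transplanted SMA, so it checks no label. The defining motor neuron markers Slc18a3 and Slc5a7 (transporters of acetylcholine and choline), Prph and Isl1 were also too dim to test, and Chat had no probe set that named it alone. The brightest probe set was of Mbp, a myelin gene, at 9981.8, 9531.1 and 11109.7 in wild type. Summed signals in wild type were 46746 to 54101 for oligodendrocyte and myelin genes and 1978 to 2176 for motor neuron and cholinergic markers. The values are thus those of mixed captures, not of motor neurons alone. Sex is not in the labels. Xist, the RNA of the inactive X chromosome in females, read 32.9, 23.5 and 31.7 in wild type, 600.7, 879.5 and 47.6 in vehicle SMA, and 733, 739.6 and 366.1 in transplanted SMA. Eif2s3y, a Y-linked gene, read 49, 54.7 and 75.1 in wild type, 0.5, 0.1 and 108.9 in vehicle SMA, and 0.4, 0.3 and 84.8 in transplanted SMA. Xist was thus higher on each transplanted array than on any wild-type array, transplanted SMA 3 carried both transcripts, and sex and group cannot be told apart for most of these arrays. Wild type 3 and SMA 3 had the highest 18S ribosomal RNA controls.

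No probe set passed the threshold, a limma adjusted p under 0.05, in transplanted SMA minus wild type. Of 11313 probe sets tested, 0 were called (0%), and the smallest adjusted p was 0.0805. At an adjusted p under 0.10 there were 5 (0.0442%), of Cdkn1a, Sult1a1, Dusp1, Ccl3 and Fech. At an unadjusted p under 0.05 there were 741, of which 370 were higher (3.27%) and 371 lower (3.28%) in transplanted SMA. Centring each array on its median turned this split to 220 higher and 613 lower. The groups did not overlap for 804 probe sets on the higher side (7.11%) and 796 on the lower side (7.04%), and the median difference of all tested was -0.01 on the log2 scale.

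The count depended on how the spread was estimated. With only the 6 arrays compared in the fit, 8 probe sets passed, of Cdkn1a, Sult1a1, Dusp1, Ccl3, Mt2, Xist (at 2 probe sets) and 1 probe set without a gene name. Without SMA 3, an array outside the comparison that enters through the shared spread, 7 passed, and without transplanted SMA 2 there was 1, of Hspb1. All differences below are therefore values with their standard errors (SE) on the scale of log2(signal + 16), and none is a call. SMA minus wild type, given beside them, shares the same 3 wild-type arrays, so the 2 sets of differences are not independent. Counts of list members at an unadjusted p under 0.05 are to be read beside 3.27% higher and 3.28% lower over all tested probe sets.

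The genes with the smallest p on the higher side were led by Sult1a1, Cdkn1a, Dusp1, Ccl3, Mt2 and Hspb1. Hspb1, a small heat shock protein that protects injured axons, lay between the other groups after the transplant. Cdkn1a, Sult1a1 and Mt2 were likewise above wild type on each transplanted array. Cdkn1a values of transplanted and untransplanted SMA overlapped.

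Hspb1 read 21.9, 13.7 and 14.2 in wild type, 177.5, 168.2 and 172 in vehicle SMA, and 93.3, 44.5 and 106.2 in transplanted SMA. The 3 groups did not overlap, and the transplanted arrays were in the middle. The means were 81.3 ± 32.5 in transplanted SMA and 16.6 ± 4.6 in wild type (SD, n = 3 each). The wild-type values were below the median signal of the arrays, so this probe set was bright enough for the test through the SMA groups, and no fold is given. The log2 difference from wild type was 1.52 (SE 0.25, limma adjusted p = 0.105), against 2.54 for SMA minus wild type. The contrast of transplanted with vehicle SMA gave -1.02 with a 95% interval of -1.56 to -0.47, not past the threshold over all probe sets. The brighter Hspb1 probe set gave the same order of groups, with 65.1, 59.4 and 88.6 in wild type, 368.5, 288.5 and 249.2 in vehicle SMA, and 171.9, 104.9 and 147.3 in transplanted SMA. Its difference from wild type was 0.85 (SE 0.22).

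The promoter of Hspb1 is shown because this was a stress gene that stood between the groups. It covers the 150 bases before the start site in RefSeq, build GRCm38.p6, chr5:135887769-135887918, plus strand, and capitals mark matches to the core of the heat shock element (GAANNTTC, searched on both strands).
Hspb1: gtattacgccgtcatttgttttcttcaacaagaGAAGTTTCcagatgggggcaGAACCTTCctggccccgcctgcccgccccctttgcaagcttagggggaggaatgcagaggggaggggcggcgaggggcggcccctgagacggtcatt
The window holds 2 matches. Of 32851 RefSeq promoters of this length, 3.95% held at least 1 match and 0.0761% held 2 or more. A match is a description of the letters and was not tied to binding here.

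Cdkn1a encodes p21, the cell cycle inhibitor that p53 drives and that injured neurons also express. It read 13.4, 16.7 and 17.9 in wild type, 135.5, 138.4 and 69.5 in vehicle SMA, and 169.9, 100.9 and 82.8 in transplanted SMA. Both SMA groups lay above every wild-type array and overlapped each other. The log2 difference was 2.01 (SE 0.28, limma adjusted p = 0.0805), next to 1.98 in SMA. Wild type was again below the median signal of the arrays at this probe set, so no fold is given. Transplanted SMA minus SMA was 0.03, with a 95% interval of -0.58 to 0.65. The second, brighter probe set gave 1.74 (SE 0.32), with the groups again apart. With Xist of each array as a covariate the Cdkn1a difference was 1.06, the lowest of all settings tried, and the part of sex in it was not tested. Xist itself differed by 3.73 between the groups compared, without overlap. Fits with Xist as a covariate, here and below, therefore cannot tell sex and group apart.

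The other p53 targets did not stand as far from wild type. Of 15 tested members of the p53 and Gadd45 list, Cdkn1a included, 11 were positive, 4 were higher at an unadjusted p under 0.05, and the median was 0.14. The p53 inhibitor Mdm2 gave -0.10 and the p53 target Ccng1 gave -0.09 (both chosen after their values were seen). Gadd45g, a stress sensor of the DNA damage family, read 32.2, 36.5 and 40.4 in wild type and 85.5, 87 and 83.3 in transplanted SMA. Its arrays were tightly grouped and apart, with a difference of 0.95 (SE 0.2, adjusted p = 0.289) beside 0.87 in SMA. Btg2, an antiproliferative gene shared with the immediate early list, gave 0.93 (SE 0.28).

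Sult1a1, a sulfotransferase of phenols, had the smallest SE of the 5 genes under an adjusted p of 0.10. It read 20.8, 32.3 and 34.3 in wild type, 155.3, 126.4 and 171.7 in vehicle SMA, and 111.7, 103.9 and 100.1 in transplanted SMA. The transplanted arrays lay above all wild-type and below all SMA arrays. The difference from wild type was 1.44 (SE 0.18, limma adjusted p = 0.0805), with 1.89 in SMA. The wild-type mean of 29.1 was below the median signal of the arrays, so Sult1a1 was bright enough for the test through the SMA groups. Transplanted SMA minus SMA was -0.45, with a 95% interval of -0.86 to -0.05, and did not pass over all probe sets.

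Metallothioneins bind zinc and copper and are induced through the metal sensor Mtf1. The list of metallothioneins also holds Mtf1. Of its 5 tested genes, 4 were positive and 3 were higher at an unadjusted p under 0.05, namely Mt2, Mt1 and Mtf1. The list median of 0.84 was the value of Mtf1. Mt2 read 864.4, 907 and 789.8 in wild type, 3554.9, 2225.3 and 3732.8 in vehicle SMA, and 1878.1, 2055.4 and 2891.3 in transplanted SMA. Every transplanted array was above wild type, and 1 SMA array lay within the transplanted range. The difference was 1.37 (SE 0.22, limma adjusted p = 0.105), beside 1.84 in SMA, and the contrast with vehicle SMA was -0.47 with a 95% interval of -0.95 to 0.02. Mt1 gave 1.12 (SE 0.29), at 1500.2, 1269.4 and 1230.4 in wild type and 2213.2, 2603 and 4215.3 in transplanted SMA. Mtf1 itself gave 0.84 (SE 0.23), at 53.1, 74.5 and 97.7 against 144.1, 172.8 and 117.6. Astrocytes are also rich in Mt1 and Mt2, and the astrocyte marker list, which holds both, is given further on; its part in these values was not tested.

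The Mt2 promoter is printed as that of the metallothionein with the smallest p (GRCm38.p6, chr8:94172468-94172617, plus strand). Capitals mark the core of the metal response element, TGCNCNC on either strand.
Mt2: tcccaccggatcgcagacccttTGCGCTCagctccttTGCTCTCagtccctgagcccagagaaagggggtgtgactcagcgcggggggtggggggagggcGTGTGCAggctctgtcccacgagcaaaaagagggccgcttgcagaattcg
It holds 3 matches. This short core is common, with at least 1 match in 31.4% and 2 or more in 7.60% of promoters of this length.

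Glucocorticoid-induced genes leaned the same way in transplanted SMA. All 11 tested members were positive, 6 were higher at an unadjusted p under 0.05, and the median was 0.60, beside 0.85 for SMA minus wild type. By array, the mean of the list lay at 0.68, 0.52 and 0.79 in transplanted SMA and 0.79, 0.88 and 0.84 in SMA, relative to the wild-type mean. Sult1a1 and Dusp1 belong to this list. Tsc22d3, the glucocorticoid-induced leucine zipper, read 32, 37.6 and 40.2 in wild type and 92.8, 88.7 and 93.6 in transplanted SMA, a difference of 1.04 (SE 0.2, adjusted p = 0.282). Its other probe sets gave 0.69 and 0.46, the last with overlapping groups. Fkbp5, the chaperone of the glucocorticoid receptor, gave 0.68 (SE 0.27) and Klf9 gave 0.68 (SE 0.24), while Ddit4 and Sgk1 gave 0.11 and 0.15 (these 4 were chosen after their values were seen).

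**Figure D1:**
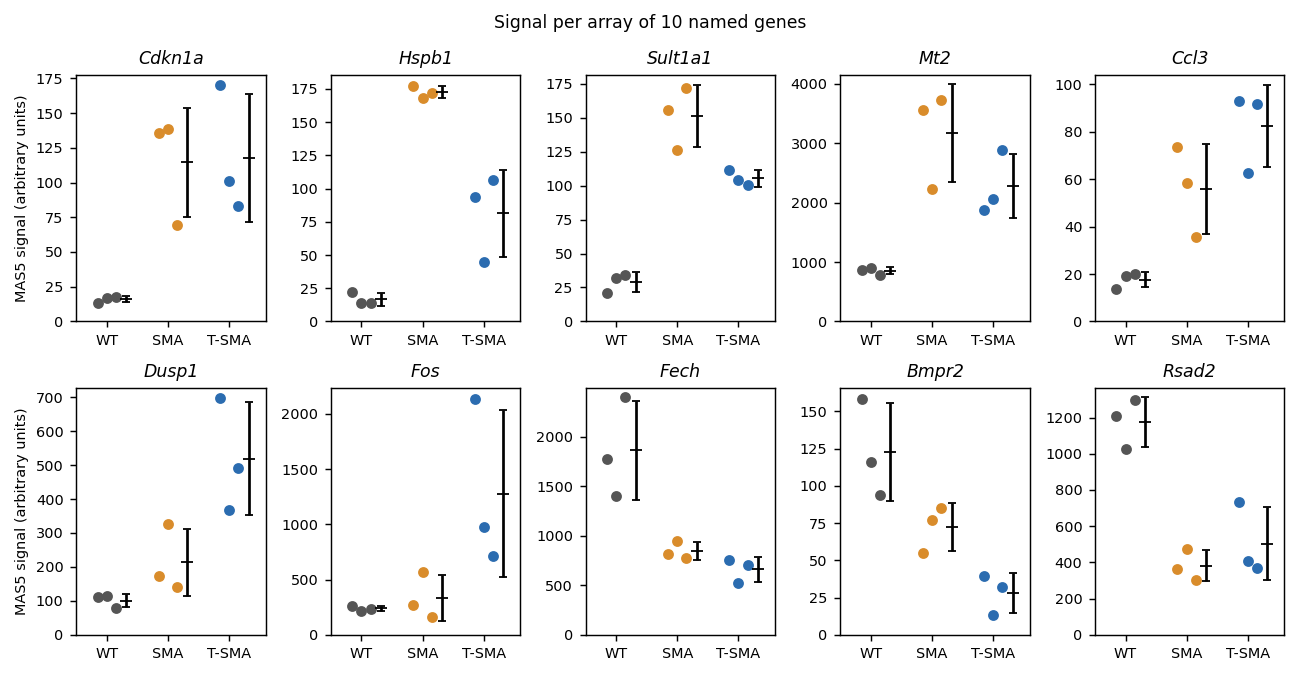
MAS5 signal (arbitrary units, linear axes, each gene on its own scale) of 10 named genes, 1 point per array; WT is wild type, T-SMA is transplanted SMA, and the bar is the mean ± SD of 3 arrays. Cdkn1a, Hspb1, Sult1a1, Mt2, Ccl3, Dusp1 and Fos read higher on each transplanted array than on any wild-type array, and Fech, Bmpr2 and Rsad2 read lower.

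Immediate early genes, which neurons and other cells switch on within minutes of activity or damage, formed the list with the highest count on the higher side. Of 23 tested members, 22 were positive, 15 were higher at an unadjusted p under 0.05 and 14 were apart from wild type without overlap. Over all tested probe sets 48.5% were positive, 3.27% were higher at that p and 7.11% were apart on the higher side. The list median was 0.97, beside 0.28 for SMA minus wild type and -0.01 over all probe sets. None passed the adjusted threshold. The list mean by array was 1.5, 0.75 and 0.54 in transplanted SMA, -0.13, -0.11 and 0.24 in wild type and 0.17, 0.50 and 0.30 in vehicle SMA.

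Transplanted SMA 1 was the highest array. Without it the immediate early median was 0.59, with 19 of 23 positive and 12 at an unadjusted p under 0.05. The same array was also the highest for meningeal, vessel and Schwann cell markers, given further on, and their part in the immediate early values was not tested. With Xist of each array as a covariate, 3 of the 23 were higher at an unadjusted p under 0.05 and the median was 0.76, in a fit that cannot tell sex and group apart.

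Dusp1, a phosphatase that switches off MAP kinases and is also a glucocorticoid target, read 110.4, 114.2 and 78.1 in wild type, 172.5, 327 and 139.7 in vehicle SMA, and 696.9, 367.9 and 491.9 in transplanted SMA. The 3 groups did not overlap, and the transplanted arrays were the highest. The mean was 5.14 times that of wild type, a difference of 2.16 (SE 0.31, limma adjusted p = 0.0805) beside 0.90 in SMA. Transplanted SMA minus SMA was 1.26, with a 95% interval of 0.58 to 1.95.

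Fos, a subunit of the AP-1 transcription factor, read 263, 216.3 and 237.6 in wild type, 264.9, 564.9 and 162.1 in vehicle SMA, and 2133.9, 978.8 and 716 in transplanted SMA. Untransplanted SMA overlapped wild type, and every transplanted array stood above both. The difference from wild type was 2.19 (SE 0.44, limma adjusted p = 0.289), beside 0.27 in SMA, and was 0.67 with Xist as a covariate. Transplanted SMA minus SMA was 1.92, with a 95% interval of 0.96 to 2.88.

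Egr1, a zinc finger factor induced by activity, showed a like order. It read 195, 170.1 and 170.8 in wild type, 284.4, 342.9 and 130.8 in vehicle SMA, and 751.3, 433.5 and 490.2 in transplanted SMA. The transplanted arrays were above all others, with a difference from wild type of 1.52 (SE 0.31, limma adjusted p = 0.289) that was 0.32 with Xist as a covariate. SMA minus wild type was 0.37.

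Socs3, an inhibitor of cytokine signalling induced by STAT3, read 20.3, 41.5 and 59.5 in wild type, 35.5, 47.5 and 45.5 in vehicle SMA, and 359.1, 92.2 and 152.9 in transplanted SMA. Again the transplanted arrays stood apart while SMA lay within the wild-type range. The difference was 1.81 (SE 0.4, limma adjusted p = 0.326), and another tested probe set gave 1.26 (SE 0.27). Junb gave 1.03, Jun 0.64, Klf2 1.19 and Nr4a1 1.30, while Jund, Dusp6, Myc and Ier5 lay between -0.11 and 0.07 (these 8 were chosen after their values were seen). Members of the list thus differed among themselves.

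**Figure D2:**
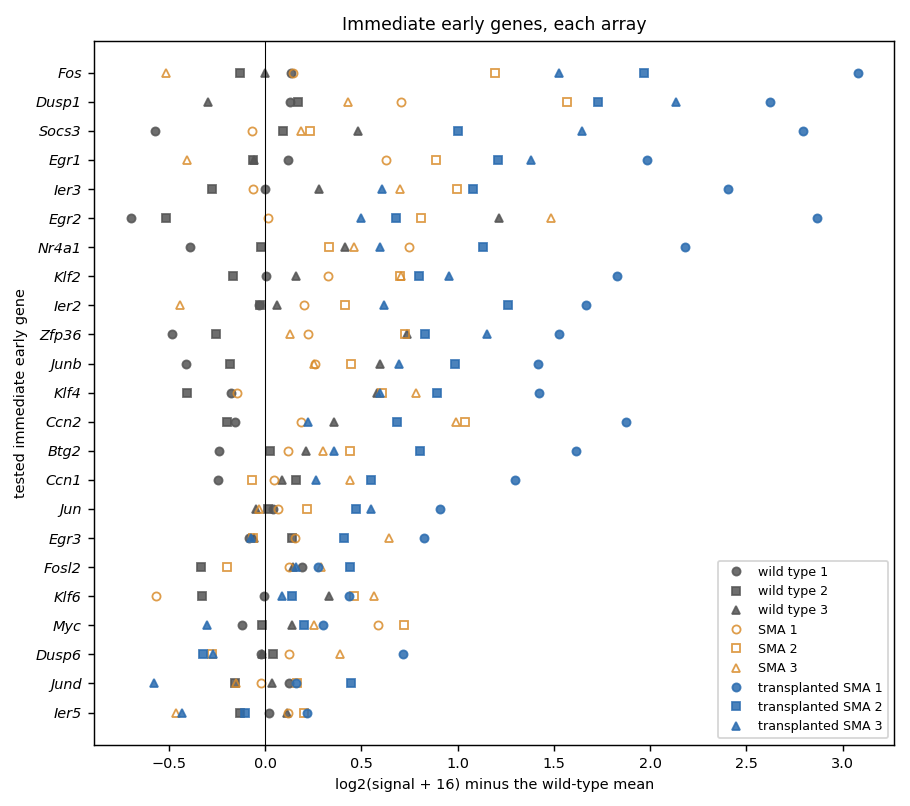
Each tested immediate early gene by array, as log2(signal + 16) minus the wild-type mean (horizontal axis, log2 units); circles, squares and triangles are samples 1, 2 and 3 of each group. For Fos, Dusp1, Socs3 and Egr1 the 3 filled blue transplanted points lie to the right of every wild-type point, while genes near the bottom such as Jund and Ier5 are mixed.

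The promoters of Dusp1 (GRCm38.p6, chr17:26508473-26508622, minus strand) and Fos (chr12:85473740-85473889, plus strand) are shown as those of the immediate early genes with the highest differences. Capitals mark the cyclic AMP response element, TGACGTCA, in Dusp1 and its short form TGACG, which the full element contains, in Fos, both searched on either strand.
Dusp1: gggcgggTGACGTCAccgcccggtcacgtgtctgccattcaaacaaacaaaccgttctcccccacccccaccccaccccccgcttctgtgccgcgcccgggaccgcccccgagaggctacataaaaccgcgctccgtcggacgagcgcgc
Fos: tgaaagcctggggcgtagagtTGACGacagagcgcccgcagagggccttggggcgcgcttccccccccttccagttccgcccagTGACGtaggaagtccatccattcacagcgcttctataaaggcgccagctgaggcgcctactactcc
The full element was in 1.36% and the short form in 13.3% of 32851 promoters. Of 18 tested immediate early genes with a promoter in the table, 6 (33.3%) held the short form, namely Fos, Junb, Egr2, Nr4a1, Dusp1 and Ccn1, and 1, Dusp1, held the full element. A gene was counted if any of its promoters matched, so this share is per gene, while the share over 32851 is per promoter.

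Ccl3, a chemokine made mainly by activated microglia and other myeloid cells, was among the 5 genes with the smallest adjusted p. It read 13.9, 19.1 and 20.1 in wild type, 73.5, 58.5 and 35.8 in vehicle SMA, and 93.2, 62.6 and 91.9 in transplanted SMA. All arrays of both SMA groups exceeded wild type, with a difference of 1.54 (SE 0.23, limma adjusted p = 0.0805) beside 1.06 in SMA. Wild type was below the median signal of the arrays, so Ccl3 was bright enough for the test through the SMA groups. Ccl4, a close relative of Ccl3 and likewise dim in wild type, read 19.4, 27.3 and 27.1 against 68, 43.4 and 46.3. It gave 0.74 (SE 0.22).

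The microglial marker list went the other way from Ccl3. Of its 27 tested members, 22 were negative, 3 were lower and 1 higher at an unadjusted p under 0.05, and the median was -0.46, beside 0.17 for SMA minus wild type. In captures of many cells, fewer cells of a type and less RNA per cell cannot be told apart. Cx3cr1, the fractalkine receptor of microglia, read 613.7, 1271.2 and 1464.9 in wild type and 450.5, 387.2 and 807.3 in transplanted SMA, a difference of -0.98 (SE 0.33) with overlapping groups. P2ry12, a purine receptor of resting microglia, gave -0.97 (SE 0.4) and the tetraspanin Cd53 gave -0.84 (SE 0.35), also with overlap. By array the list lay at -0.58, 0.02 and 0.57 in wild type and at -0.69, -0.81 and 0.22 in transplanted SMA, so both groups ranged widely. Without transplanted SMA 3 the microglial median was -0.89 with 15 members lower at an unadjusted p under 0.05, and without wild type 3 it was -0.14 with 0. With Xist as a covariate it was -0.03.

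The list of red cell and plasma genes had the most negative median of the 44 lists. All 6 tested members of the erythroid and plasma list were negative, 3 were lower at an unadjusted p under 0.05, and the median was -1.16, beside -0.90 for SMA minus wild type. By array the list lay at -0.96, -1.16 and -0.78 in transplanted SMA, -0.99, -0.50 and -0.91 in SMA, and -0.05, -0.23 and 0.28 in wild type. The cords had been perfused, and the blood left in each was not measured.

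Fech, the last enzyme of heme synthesis, read 1781.4, 1407.4 and 2402.8 in wild type, 818.4, 952.9 and 773.4 in vehicle SMA, and 760.9, 521.7 and 706.1 in transplanted SMA. Transplanted arrays were all below wild type, whose mean was 2.81 times theirs. The difference was -1.45 (SE 0.22, limma adjusted p = 0.0805), beside -1.09 in SMA, and the other tested probe sets gave -1.36 and -0.51, the last with overlap. Alas2, the red cell enzyme that starts heme synthesis, read 1574.5, 1107 and 2237.8 against 638.5, 410.5 and 807.7 in transplanted SMA. It gave -1.38 (SE 0.28, adjusted p = 0.289) with the groups apart. The mitochondrial iron importer Slc25a37 gave -0.89 (SE 0.25). Adult globin Hbb-b2 gave -1.35 (SE 0.54), at 335.3, 176.7 and 806.1 against 90.3, 133.9 and 195.2, with overlap.

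Of 12 tested heme synthesis genes, Fech, Alas2 and Slc25a37 among them, 7 were negative, 3 were lower at an unadjusted p under 0.05 and 5 were below wild type without overlap, with a median of -0.22. Over all tested probe sets 7.04% were below wild type without overlap. Fech and Alas2 are in the erythroid list too, so the lists are not independent. Alas1, the form of the first enzyme outside red cells, gave 0.16 (SE 0.19), Alad 0.06 and Uros 0.11, while Urod gave -0.49 and Cpox -0.23 (chosen after their values were seen). Mkrn1, a ubiquitin ligase, gave -1.28 (SE 0.23) and -1.16 at probe sets with the groups apart but -0.26 at its brightest, so its probe sets disagree. Isg20, an interferon-induced exonuclease, read 178.7, 137.1 and 262.7 in wild type and 58.8, 44.2 and 57.6 in transplanted SMA, a difference of -1.55 (SE 0.26, adjusted p = 0.142) beside -1.04 in SMA.

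Bmpr2, a receptor of bone morphogenetic proteins, had the most negative difference of the named genes. It read 158.6, 116.1 and 94.1 in wild type, 54.6, 77.3 and 85.3 in vehicle SMA, and 39.5, 13 and 31.9 in transplanted SMA. The 3 groups did not overlap, with the transplanted arrays lowest. The transplanted mean of 28.1 was below the median signal of the arrays, so Bmpr2 was bright enough for the test through the other groups. The difference from wild type was -1.68 (SE 0.27, limma adjusted p = 0.105), beside -0.64 in SMA, and transplanted SMA minus SMA was -1.04 with a 95% interval of -1.63 to -0.44. The list of this pathway, Bmpr2 included, had a median of 0.04 over 18 tested members, a value that turned negative with median centring. The receptor Bmpr1a gave 0.02 and Smad4 -0.06 (chosen after their values were seen), while the target Id1 gave 0.74 (SE 0.29) with overlap.

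Further genes among those with the smallest p on the lower side differed between their own probe sets. Malat1, an abundant nuclear noncoding RNA, read 507.7, 345.4 and 424.6 in wild type and 115, 140.4 and 226.3 in transplanted SMA, a difference of -1.36 (SE 0.29, adjusted p = 0.313). Its other tested probe sets gave -1.12, -0.61 and -0.56, the last 2 with overlap, and with Xist as a covariate the first was -0.46. Zfp638, a splicing-associated zinc finger protein, was closely grouped at 73.2, 80.2 and 82.5 against 33.3, 36.4 and 35.6, with -0.89 (SE 0.15, adjusted p = 0.145), and its other probe set gave -0.40 with overlap. Cbx5, the heterochromatin protein HP1 alpha, gave -1.03 (SE 0.21) at 1 probe set and -0.40, -0.28 and -0.14 at the others tested. Add3, a membrane skeleton protein, gave -0.78 (SE 0.17) at 1 probe set but 0.46 and 0.02 at others, so no direction is given for this gene.

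Interferon and antigen presentation genes showed no common direction. Of 12 tested, 6 were positive and 6 negative with a median of 0.02. Rsad2, an antiviral enzyme, stood out at 1207.9, 1024.5 and 1294.7 in wild type, 366.1, 476.7 and 303.8 in vehicle SMA, and 733.7, 404.9 and 369.7 in transplanted SMA. Both SMA groups were below wild type and overlapped each other, with a difference of -1.26 (SE 0.26, adjusted p = 0.289) beside -1.60 in SMA, and other probe sets gave -0.95 and -0.31. Tap2, a peptide transporter, gave 0.49 (SE 0.18).

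**Figure D3:**
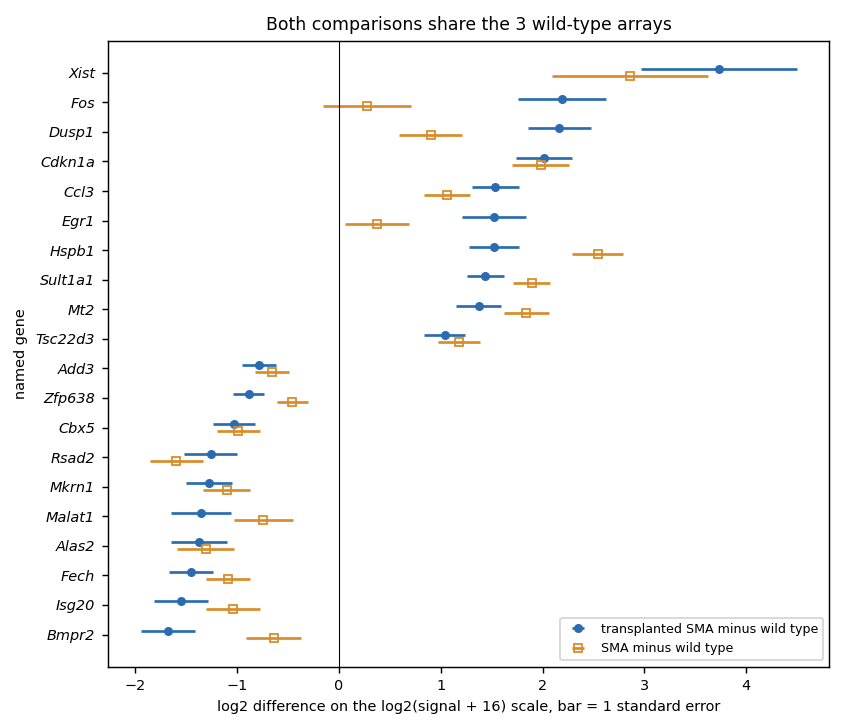
Log2 differences from wild type of the 10 named genes with the smallest p on each side (horizontal axis, log2 units; bar, 1 SE), filled circles for transplanted SMA and open squares for SMA. Hspb1 was 1.52 in transplanted SMA and 2.54 in SMA, while Fos was 2.19 and 0.27; the 2 sets share the 3 wild-type arrays.

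Lists of neuronal genes had medians near wild type. General neuronal markers had a median of -0.05 over 24 tested members, 10 of them positive, and 0 reached an unadjusted p under 0.05. By array this list lay at -0.10, 0.40 and -0.32 in transplanted SMA and 0.07, 0.05 and -0.12 in wild type, so the transplanted arrays ranged more widely. Axonal motors and transport genes had a median of 0.03 over 23, a value that turned negative with median centring, and glutamate, GABA and glycine receptors had -0.01 over 9. Dctn3, a subunit of the dynactin complex, gave 0.60 (SE 0.21) with the groups apart.

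Motor neuron and cholinergic markers were highest on transplanted SMA 2. On the array 27 of them had a probe set. Of the 12 bright enough for the test, 11 were positive and 2 were higher at an unadjusted p under 0.05, and the median was 0.36, beside -0.09 for SMA minus wild type. By array the list lay at -0.05, -0.06 and 0.11 in wild type, -0.04, -0.18 and -0.04 in vehicle SMA, and 0.27, 0.75 and 0.13 in transplanted SMA. Their summed signal was 2142.8, 3706.1 and 1942.7 in transplanted SMA and 2175.8, 2175.9 and 1977.9 in wild type, so by this sum 2 of the 3 transplanted arrays were not above wild type. Without transplanted SMA 2 the motor neuron and cholinergic median was 0.09. Isl2, a homeobox factor of motor neurons, read 43, 59.6 and 26.4 in wild type, 47.8, 34.7 and 58 in vehicle SMA, and 119.8, 83.7 and 62.6 in transplanted SMA. The transplanted arrays were above the others, with a difference of 0.83 (SE 0.27, adjusted p = 0.671).

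Neurofilaments, the structural filaments of large axons, were high on 1 transplanted array. Nefl read 980.8, 965.6 and 856.6 in wild type and 752.9, 1458 and 731.2 in transplanted SMA, a difference of -0.00 (SE 0.28, 95% interval -0.62 to 0.62). Nefm read 188.3, 200.1 and 156.3 against 165.2, 602.8 and 151.8, and gave 0.44 (SE 0.42). Nefh read 77.2, 97.9 and 156.2 against 91.2, 348.2 and 120.4, and gave 0.51 (SE 0.4). The highest value of each was on transplanted SMA 2. The other transplanted arrays lay below every wild-type array for Nefl, within or just below the wild-type range for Nefm and within it for Nefh, and without transplanted SMA 2 the differences of Nefm and Nefh were -0.17 and -0.02.

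Ion channel genes included some of the higher differences among neuronal genes. Kcna1, a potassium channel of axons near the node of Ranvier, read 58.1, 54 and 130.8 in wild type, 70.1, 102.9 and 316.1 in vehicle SMA, and 507.5, 165.3 and 235.6 in transplanted SMA. The transplanted arrays were above wild type and overlapped SMA, with 1.66 (SE 0.51, adjusted p = 0.631). Kcnk1, a background potassium channel, read 195.4, 170.3 and 189.9 against 269.9, 316.8 and 473.6 and gave 0.84 (SE 0.24).

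Genes of neural progenitors, the class to which the grafted cells belong, were not higher as a list. Of 25 tested, 10 were positive and the median was -0.16, and by array the list lay at -0.22, 0.12 and -0.16 in transplanted SMA and 0.12, 0.00 and -0.12 in wild type. Nes, an intermediate filament of progenitors that vessels also express, read 49.5, 49.5 and 92 against 216.2, 99.4 and 57.5, a difference of 0.70 (SE 0.37) with overlap. Sox2 gave -0.47 (SE 0.26) and Dcx, a microtubule protein of young neurons, -0.34 (SE 0.39), both with overlap. Cell cycle genes had a median of -0.13 over 23, of which 8 were positive. The arrays cannot tell donor from host transcripts by these probe sets.

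Genes of the SMN complex and the spliceosome core were near wild type too, with a median of -0.07 over 16 tested. Snrpa1, a protein of the U2 particle, read 122.1, 138.3 and 125.9 in wild type, 191, 294.9 and 250.4 in vehicle SMA, and 189.1, 299.4 and 194.8 in transplanted SMA. Both SMA groups were above wild type and alike in range, with 0.72 (SE 0.22, adjusted p = 0.606) beside 0.83 in SMA. Its other tested probe sets gave 0.30 with overlap, beside 0.71 in SMA, and 0.37 with the groups apart, beside 0.53. Of 28 tested SR and hnRNP splicing factors, 9 were positive, 4 were lower at an unadjusted p under 0.05, and the median was -0.08. Hnrnpc, which binds nascent transcripts, read 2121.4, 1952.7 and 2167 against 1599.2, 1538.6 and 1442 and gave -0.44 (SE 0.15), Rbm39 gave -0.51 (SE 0.2) and Tra2b -0.33 (SE 0.15). Other tested probe sets of Rbm39 gave -0.23, -0.23 and 0.15, all with overlap. That of Hnrnpc gave -0.35 with overlap, and that of Tra2b -0.33 with the groups apart.

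Markers of cells around the motor neurons were mostly highest on single arrays. Meningeal and fibroblast markers were positive in 28 of 30 with a median of 0.76, but by array they lay at 1.81, 0.18 and 0.19 in transplanted SMA and -0.42, -0.32 and 0.73 in wild type, so 2 of the 3 transplanted arrays were within the wild-type range. Their summed signal was 4381 to 16043 in transplanted SMA and 3184 to 8356 in wild type, and 0 members were at 0 on all 6 arrays. Without transplanted SMA 1 the median of the meningeal and fibroblast, collagens and laminins list was 0.17. Lama5, a laminin of vessel basement membranes, was the exception with groups apart, at 46, 31.7 and 41.8 against 106.7, 59.8 and 80.9 (0.80, SE 0.31). Endothelial and vessel wall markers were positive in 19 of 20 with a median of 0.46, which was 0.13 without transplanted SMA 1. Ramp2, an adrenomedullin receptor subunit of vessels, gave 0.89 (SE 0.32) with the groups apart.

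Schwann cell markers had a median of 1.45 over 6 tested, of which 4 were positive and 2 negative. In the fit of the brighter 25% of probe sets 3 were tested, 1 was positive and the median was -0.05. By array the 6 lay at 2.22, 0.46 and 0.95 in transplanted SMA and -0.64, -0.55 and 1.20 in wild type, so wild type 3 was above 2 transplanted arrays. Ncmap, a protein of peripheral myelin, read 14.7, 3.5 and 182.4 against 908.2, 76 and 191.2. Dhh, a signal from Schwann cells to the nerve sheath, read 3.5, 6.9 and 45.8 against 183.1, 47.6 and 38.5. The groups overlapped for both.

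Astrocyte and oligodendrocyte markers differed less. Of 31 tested astrocyte markers 23 were positive, 5 were higher at an unadjusted p under 0.05, and the median was 0.20, with summed signals of 43728 to 61652 in transplanted SMA and 38883 to 43927 in wild type. Slc1a2, the main glutamate transporter of astrocytes, read 89.2, 48 and 71.6 in wild type, 41.5, 53.4 and 130.5 in vehicle SMA, and 119.9, 138.9 and 152 in transplanted SMA, a difference of 0.86 (SE 0.32). Gfap gave 0.64 (SE 0.59) with overlap. Oligodendrocyte and myelin genes had a median of -0.08 over 31, beside -0.37 in SMA. Gjb1, a gap junction protein of myelinating cells, read 106.7, 169.5 and 67.7 in wild type, 20.4, 32.8 and 18.2 in vehicle SMA, and 47, 40.1 and 63 in transplanted SMA. Its transplanted arrays lay between the other groups, with -0.92 (SE 0.28, adjusted p = 0.614) beside -1.66 in SMA.

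Skeletal muscle transcripts, which 2 SMA arrays carried, were near wild type after the transplant. Acta1, skeletal actin, read 3.4, 15.1 and 27.1 in wild type, 1288.7, 1413.7 and 1.5 in vehicle SMA, and 8.8, 8.4 and 8.4 in transplanted SMA. Acta1 was bright enough for the test only through the SMA group. Of 28 muscle genes with a probe set, 9 were tested, and the filter favoured those that SMA arrays carried. The list median was 0.20 over these 9, beside 1.53 for SMA minus wild type, and neither median speaks for the untested members. The summed signal of all 28 was 492 to 578 in transplanted SMA and 312 to 837 in wild type.

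**Figure D4:**
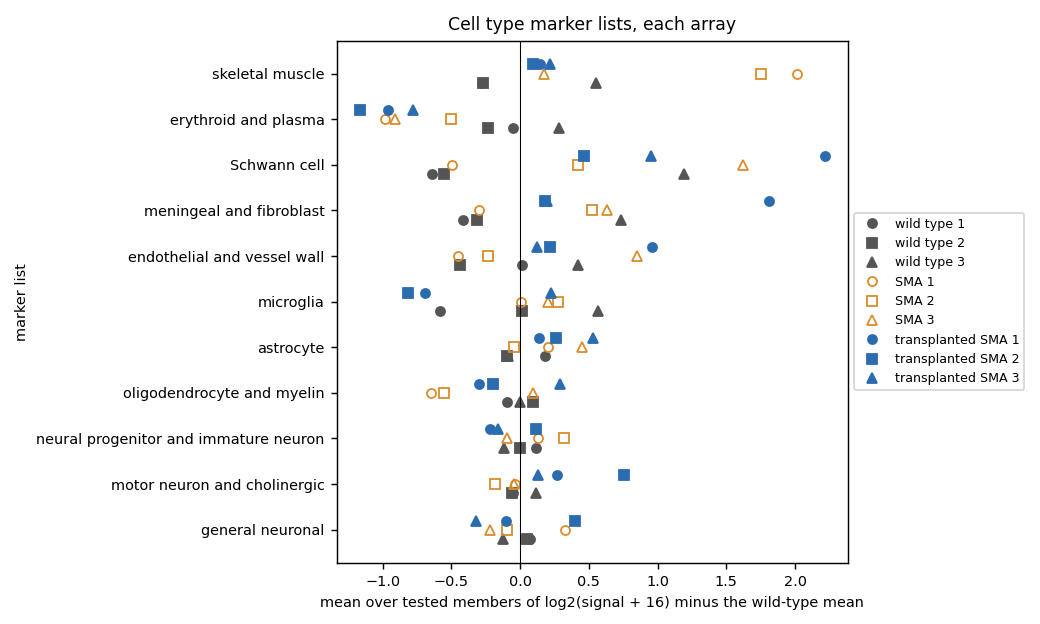
Mean over the tested members of each marker list, by array, as log2(signal + 16) minus the wild-type mean (horizontal axis, log2 units); circles, squares and triangles are samples 1, 2 and 3. Transplanted SMA 1 lies at 1.81 for meningeal and 2.22 for Schwann cell markers, erythroid markers are below wild type on all 3 transplanted arrays, and microglial markers overlap.

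Cholesterol and fatty acid synthesis genes, which supply membranes and myelin, had negative medians in both SMA groups. Of 28 tested, 22 were negative and 4 were lower at an unadjusted p under 0.05, with a median of -0.15 beside -0.55 for SMA minus wild type. The list lay at -0.31, -0.19 and 0.01 in transplanted SMA, 0.05, 0.15 and -0.19 in wild type and -0.47, -0.56 and -0.37 in vehicle SMA. Idi1, an isomerase of the sterol pathway, read 879.8, 915.7 and 902.8 in wild type and 540.2, 682.8 and 730.4 in transplanted SMA, with -0.47 (SE 0.17) beside -0.42 in SMA. Cyp51 and Fdft1, later enzymes of the same pathway, gave -0.45 (SE 0.17) and -0.46 (SE 0.18), all 3 with the groups apart at these probe sets. Other tested probe sets gave -0.18 for Idi1, -0.12 for Fdft1 and -0.39 for Cyp51, each with overlap. A further Cyp51 probe set gave -0.79 with the groups apart. The cholesterol and fatty acid synthesis median without the arrays numbered 3 was -0.46, with 12 of 28 lower at an unadjusted p under 0.05. The difference between the list medians of both SMA groups was not tested.

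Of 20 tested neurotrophic factors and receptors, 2 lay above and 1 below wild type without overlap, Igfbp3 and Ptn among them. Over all tested probe sets these shares were 7.11% and 7.04%. Ptn, the growth factor pleiotrophin, read 1086.8, 1101.4 and 770.7 in wild type and 590.6, 628.7 and 609.5 in transplanted SMA, with -0.66 (SE 0.2) beside -0.53 in SMA, and its other probe set gave -0.23 with overlap. Igfbp3, which binds insulin-like growth factors, read 16.8, 8.2 and 17.9 in wild type, 31.8, 46.5 and 112.4 in vehicle SMA, and 54.2, 37.4 and 42.6 in transplanted SMA. It gave 1.01 (SE 0.32) beside 1.28 in SMA. Wild type was below the median signal of the arrays, so Igfbp3 was bright enough for the test through the SMA groups. The whole list of neurotrophic factors and receptors had a median of 0.08 over 20.

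Other stress and housekeeping groups stayed within a narrow range of wild type. Heat shock and HSF1 targets had a median of -0.14 over 21 tested, and the cochaperone Chordc1 gave -0.52 (SE 0.17) with the groups apart. Endoplasmic reticulum stress genes had -0.08 over 23, where the chaperones Calr and Hspa5 gave -0.37 (SE 0.15) and -0.38 (SE 0.27). Oxidative stress genes had -0.00 over 15, with the glutathione transferase Gsta4 at 0.39 and the sulfiredoxin Srxn1 at 0.44. Cytosolic ribosomal proteins had a median of 0.05 over 42, beside 0.16 in SMA, a value that turned negative with median centring, and 5 were higher at an unadjusted p under 0.05, led by Rpl39 at 0.80 (SE 0.25). The respiratory chain had -0.03 over 59 and the proteasome -0.01 over 31.

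**Figure D5:**
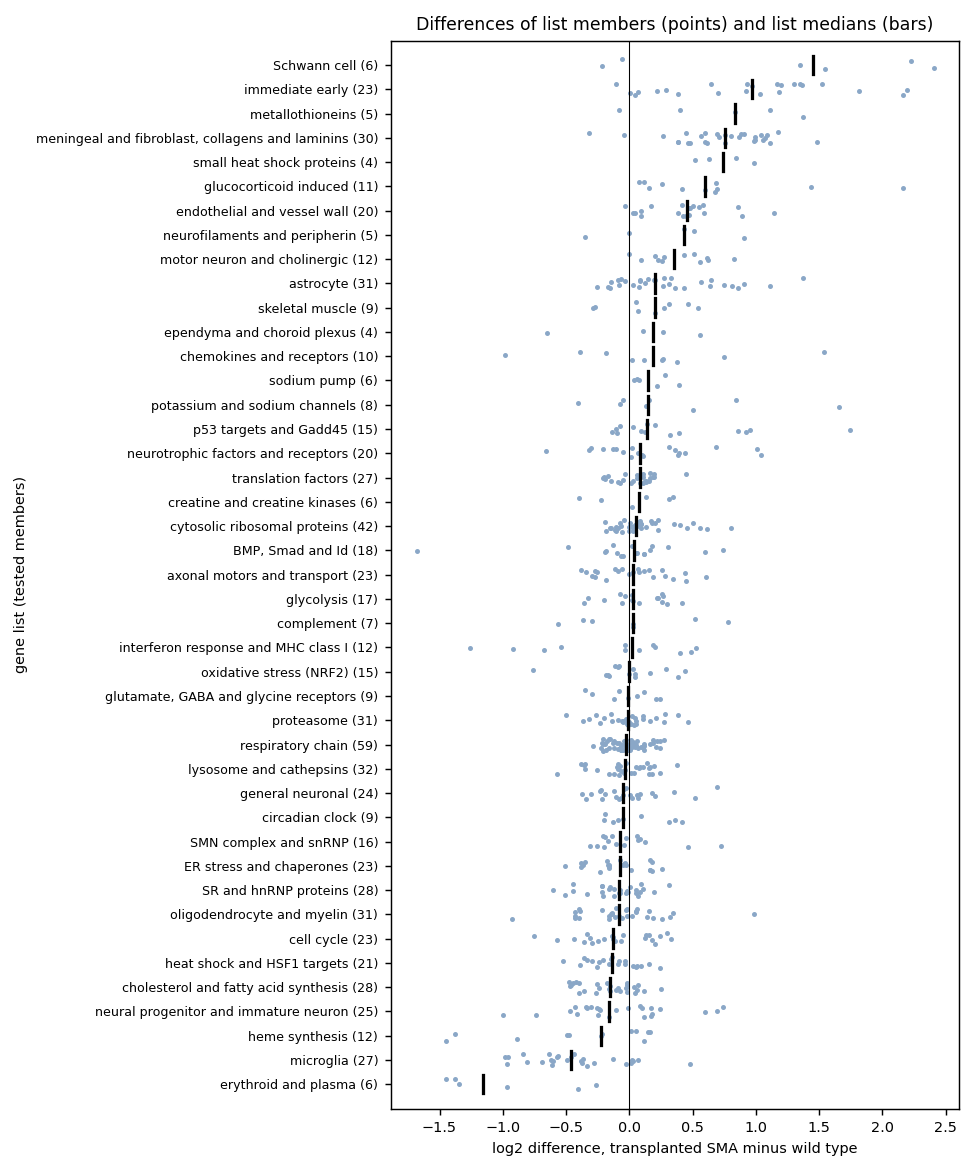
Log2 difference, transplanted SMA minus wild type, of each tested member (points) and the median (bar) of each gene list, with the number tested in brackets. Immediate early genes have a median of 0.97, erythroid and plasma genes -1.16, and most housekeeping lists lie near 0; no point passed an adjusted p of 0.05.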

How the data were processed

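Captures of motor neurons of 9 mice in 3 groups were measured on 1 array each. The authors deposited MAS5 signals, 1 linear intensity for each probe set, scaled to a common level on every array; MAS5 is named in the submitters' processing notes, and its version was not found in the labels. Labelling used a double amplification, per the labels' protocols, which favours the 3' end of transcripts. Of 22690 probe sets, 64 controls were left out. Of the rest, 20380 named 1 gene in the platform annotation, 691 named several and 1555 were not listed, and genes were named from the first kind alone.

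Signals had 16 added and were taken to log2, which understates differences of dim genes. The brighter 50% by mean over the 9 arrays (11313 probe sets, 7254 genes) was tested in limma 3.58.1 (R 4.3.3; lmFit, eBayes with trend) in 1 model of 3 group means with 6 residual degrees of freedom. Tests were two-sided, with Benjamini-Hochberg adjustment and a threshold of 0.05. The script was tested on simulated data. The filter used the mean over all groups, so a probe set dim in wild type could be tested through the SMA groups. A gene entered a list by its brightest tested probe set. The comparison, the 44 gene lists and the genes named were chosen with earlier results of these data known. Named genes were up to 12 per direction past the threshold, filled to 10 per direction by the smallest p with groups apart, up to 3 per list at an unadjusted p under 0.05, and a fixed set; genes outside this rule are marked as such. Nothing beyond 1 animal per array is stated on sampling, so p-values measure the spread between these animals, and the number of arrays limits the precision. Scaling, pseudocount, filter, fit, covariates, probe sets and arrays were varied in 26 alternative fits.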

Additional observations from a re-analysis of the deposited data

How the results depend on the processing

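Of 26 alternative fits, 1 (medians of tested probe sets centred) was chosen after seeing the data. The count of 0 probe sets past an adjusted p of 0.05 became 2 with a pseudocount of 1, 8 with array weights, 8 with only the 6 arrays compared, 8 with muscle transcripts as a covariate, 4 without the arrays numbered 3 and 5 at an adjusted p of 0.10. Leaving out each array in turn gave 0 to 7. The count of 741 at an unadjusted p under 0.05 became 1524 with dim probe sets kept, 338 with the brighter 25%, 1221 with array weights and 1384 with Xist as a covariate, and was 503 to 832 leaving out each array in turn. Same-numbered wild-type and transplanted arrays had correlations of -0.08, 0.11 and 0.14 after group means were removed, and differently numbered ones lay between -0.28 and 0.25. Same-numbered wild-type and SMA arrays had 0.30, 0.03 and 0.45, and SMA and transplanted SMA arrays had 0.12, 0.02 and 0.27. The arrays numbered 3 were thus positively correlated in each pair of groups, and what they share was not tested. With the sample number as a replicate block, 0 passed and 963 were at an unadjusted p under 0.05.

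Of the named genes tested, 5 changed direction somewhere. Nefl, at -0.00, gave 0.014 with quantile normalisation, 0.10 with array weights, 0.11 when the arrays numbered 3 of all groups or of the compared groups were left out, and 0.03, 0.02, 0.15 and 0.17 without wild type 1, wild type 2, transplanted SMA 1 and transplanted SMA 3 (range over single arrays left out, -0.32 to 0.17). Nefm gave -0.45 with Xist as a covariate and -0.17 without transplanted SMA 2 (range -0.17 to 0.77), Nefh gave -0.016 without transplanted SMA 2 (range -0.016 to 0.87), P2ry12 gave 0.16 with Xist as a covariate, and Acta1 gave 0.0021 without the arrays numbered 3 and without transplanted SMA 3 and wild type 3. The causes were not tested. Over all named genes and settings, 1884 values kept their direction and side of the threshold, 31 passed where the reported value did not, and 14 turned. Of the list medians, 1107 values stayed within the spread between arrays and 53 moved by more. With 3 arrays per group and defining motor neuron markers near background, small differences could not be resolved.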

Other observations

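Probe sets of 1 gene did not always read alike. Of the tested Mbp probe sets, the brightest gave 0.19 (SE 0.17), while a dimmer one read 388, 385 and 420.1 in wild type and 172.8, 213.1 and 228.3 in transplanted SMA, a difference of -0.91 (SE 0.33) with the groups apart. Hes5 and Cd24a of the progenitor list read lower on each transplanted array than on any wild-type array, with -1.0 (SE 0.57) and -0.74 (SE 0.43), neither past the threshold, and they were chosen after their values were seen. These were 2 of 25 tested members, beside 7.04% of all tested probe sets apart on the lower side.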
